A study of Mus musculus with 12 samples.

Results

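Ace and 4 other genes of the renin-angiotensin system were followed across aortic valve leaflets of mice lacking fibulin-4 in smooth muscle, in endothelium or in both. The members were taken by name from the deposited table of 41709 genes: Ace, Agt, Agtr1a, Agtr2 and Agtrap, 5 genes in all. Of these, Ace and Agtrap had enough counts to enter the test across genes. Leaflets were cut out by laser microdissection from fixed, frozen and hematoxylin-stained heart sections, and their amplified cDNA was sequenced. All mice were of mixed C57BL/6J;129SvEv background and 2 months old, with 3 libraries in each of 4 genotype groups named DKO, SMKO, ECKO and CTRL. The labels give these codes without the gene, the alleles or the Cre lines. In the study as it is known, Efemp2, which encodes the elastic fibre protein fibulin-4, was deleted in both endothelial and smooth muscle cells (DKO), in smooth muscle cells (SMKO) or in endothelial cells (ECKO). The labels call the libraries biological triplicates but tie no library to an animal, so the p-values measure the spread between these libraries, which may be partly technical.

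The renin-angiotensin system makes a short peptide hormone in steps. Renin cuts angiotensinogen, the product of Agt, into angiotensin I, and angiotensin-converting enzyme, the product of Ace, trims that to angiotensin II and also breaks down bradykinin. Angiotensin II acts in mice mainly through the receptor encoded by Agtr1a, which raises vascular tone and promotes matrix production; the receptor encoded by Agtr2 is most abundant before birth and often opposes it. Agtrap encodes a protein that binds the tail of the Agtr1a receptor and promotes its internalisation. Ace is membrane-bound on endothelial cells and on some fibroblasts and smooth muscle cells, and it is known to rise in the fibulin-4-deficient mouse aorta.

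Ace has separate start sites, shown here because a gene-level count does not tell them apart. RefSeq lists a first start and a second start 7241 bases further inside the gene; an internal start of Ace is known to give the shorter enzyme of the testis, while the first gives the somatic enzyme with its paired catalytic domains. Below, capitals mark matches on either strand to the TATA box core TATAA, to the GC box GGGCGG or to the Egr1 site GCGNGGGCG. They also mark TGANGTCA, a loosened form of the cyclic AMP response element in which N is any base. The 250 bases before the first start (chr11:105967698-105967947, plus strand, GRCm38.p6) and before the second (chr11:105974939-105975188, plus strand, GRCm38.p6) read as follows, 5′ to 3′.
Ace first start: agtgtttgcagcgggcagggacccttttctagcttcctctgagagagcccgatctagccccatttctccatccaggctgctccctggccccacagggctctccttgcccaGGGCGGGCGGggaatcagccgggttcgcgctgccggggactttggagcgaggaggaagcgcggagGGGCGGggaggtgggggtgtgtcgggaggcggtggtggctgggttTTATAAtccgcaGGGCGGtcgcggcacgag
Ace second start: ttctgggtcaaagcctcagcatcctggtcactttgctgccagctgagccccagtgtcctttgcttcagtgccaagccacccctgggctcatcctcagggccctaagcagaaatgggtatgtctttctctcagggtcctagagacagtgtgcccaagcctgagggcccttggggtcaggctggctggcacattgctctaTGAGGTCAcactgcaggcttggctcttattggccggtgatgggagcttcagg
The window before the first start held TATAA on both strands in overlapping letters, its plus-strand match beginning 29 bases before the start, and GGGCGG, the GC box bound by Sp1 and related factors, at 4 places, 2 of which overlap. TATAA occurs in 22.8% and GGGCGG in 32.7% of all 32851 RefSeq windows of that length. The window before the second start held neither. It had 1 match to TGANGTCA, the loosened form of the cyclic AMP response element, which 7.49% of windows hold. The match reads TGAGGTCA, where the usual element has C in the place of N. GCGNGGGCG, the letters bound by Egr1, was in neither Ace window, against 4.70% of all windows. Promoter windows were found for 4 of the 5 members; Agtr1a was not among them.

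Library totals ran from 74827 counts in SMKO 3 to 615665 in ECKO 2, with a median of 321312. Mitochondrially encoded genes took 24.1% to 28.6% of counts in SMKO 2, SMKO 3 and CTRL 3 and at most 20.98% elsewhere. Y-linked genes had 89 counts in SMKO 1, 30 in CTRL 3 and 28 in DKO 3. Every other library, including all of ECKO, had at most 1. Efemp2 had 0 counts over the DKO libraries, 4 in SMKO, 26 in ECKO and 90 in CTRL. The endothelial and the valve interstitial markers were present in every library, and heart muscle markers summed to 798 CPM (counts scaled to a common library size) in ECKO 2 against at most 110.4 elsewhere.

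**Figure D1:**
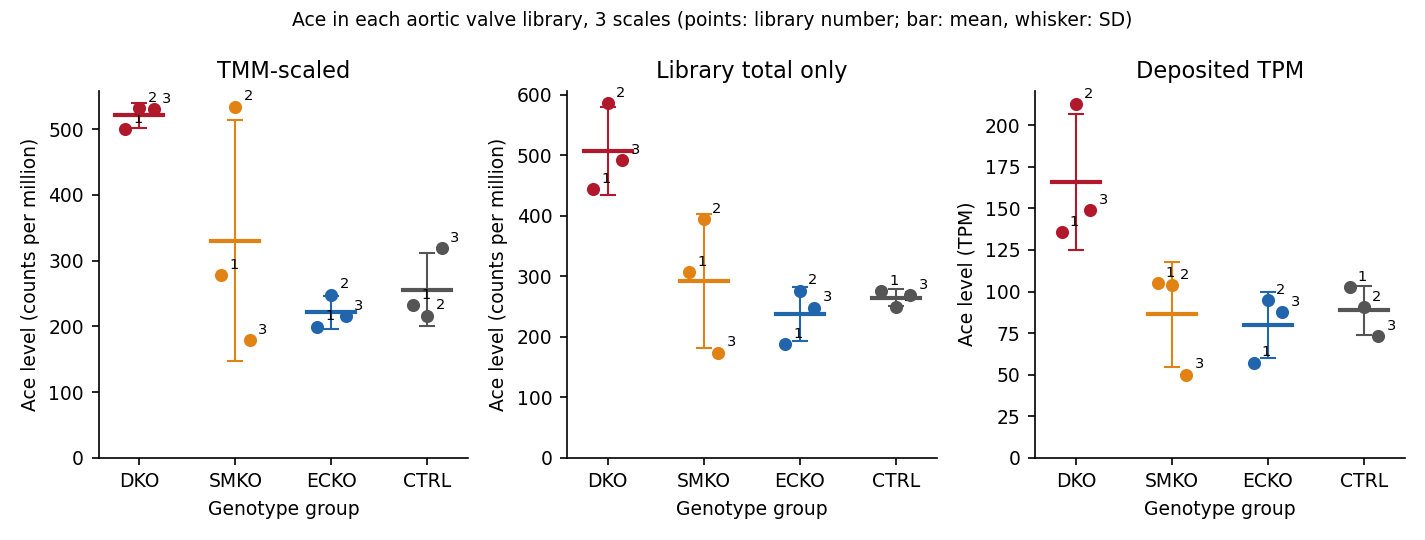
Level of Ace in each of the 12 libraries on 3 scales: CPM scaled by TMM, CPM of the library total, and the deposited TPM. Points are libraries with their number, bars are means and whiskers SD (n = 3). The DKO libraries lie above every ECKO and CTRL library on all 3 scales, while SMKO 2 reaches the DKO level in the first panel and not in the other 2.

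Ace (ENSMUSG00000020681, on chromosome 11) was higher in DKO valves than in ECKO valves. In bulk tissue, a change in the number of cells of a type and a change in RNA per cell cannot be told apart. The DKO libraries had 110, 267 and 128 counts of Ace, the SMKO libraries 163, 104 and 13, the ECKO libraries 39, 170 and 94, and the CTRL libraries 159, 140 and 43. Scaled by TMM, a correction for library composition, these are 499, 532 and 531 CPM in DKO, 277, 534 and 179 in SMKO, 199.7, 248 and 216 in ECKO, and 232, 216 and 319 in CTRL. The DKO libraries lie above every ECKO and CTRL library. On this scale they also lie close together, but less so per library total, at 444, 586 and 492 CPM. SMKO 2 lies level with the highest DKO library, while SMKO 1 and SMKO 3 lie within or below the range of the ECKO and CTRL libraries. The means were 521 ± 18.4 CPM in DKO, 330.3 ± 183 in SMKO, 221 ± 24.6 in ECKO and 256 ± 55.6 in CTRL (SD, n = 3 each). On the GRCm38 annotation Ace overlaps the antisense gene Gm11651, which had 0 counts in every library.

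Against ECKO, Ace rose in DKO by a log2 fold change of 1.22 ± 0.29 (SE; 2.34-fold, 95% interval 1.56 to 3.51; edgeR adjusted p = 0.0426). That test called 0.572% of the 6296 genes tested in either direction and 0.349% higher in DKO than in ECKO. The DKO libraries lay above all ECKO libraries in Ace, as they did for 9.97% of genes. The call is close to the threshold. It was lost without any DKO or ECKO library and without CTRL 1 or CTRL 2 (adjusted p from 0.0536 to 0.243), with the log2 fold change between 1.18 and 1.31 over all 12 single omissions. It was also lost when counts were scaled to the library total alone (1.09, adjusted p = 0.0927) and with depth as a covariate (adjusted p = 0.0522).

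Against CTRL, Ace stood 1.06 ± 0.29 higher in DKO on the log2 scale (SE; 2.08-fold, 95% interval 1.38 to 3.12), and did not pass edgeR's test (adjusted p = 0.0893), which called 0.492% of genes in either direction and 0.286% higher. It passed with DESeq2 (adjusted p = 0.0489), with no filter on low counts (0.0398), without the 2 shallowest libraries (0.0287) and without SMKO 2 (0.00772) or SMKO 3 (0.0410), both of them libraries outside this pair; the cause was not tested. The DKO libraries lay above all CTRL libraries, as they did for 9.70% of genes tested. Comparisons of DKO with ECKO and with CTRL share the DKO libraries and are not independent.

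**Figure D2:**
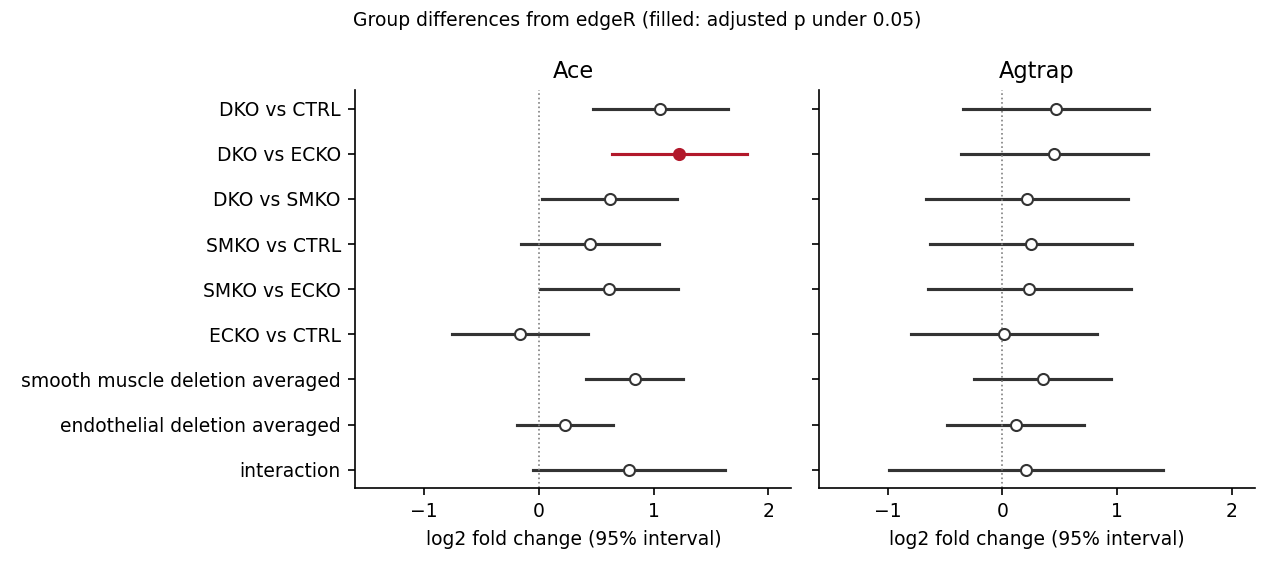
Log2 fold changes of Ace and Agtrap between groups from edgeR, with 95% intervals; filled points have an adjusted p under 0.05. The Ace difference between DKO and ECKO, 1.22, is the 1 filled point, and every Agtrap interval spans 0.

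With smooth muscle deletion alone, the SMKO libraries spread widely in Ace. Against CTRL the difference in SMKO was 0.44 ± 0.29 (log2, SE; 1.36-fold, 95% interval 0.895 to 2.06; edgeR adjusted p = 0.924), and it was -0.05 without SMKO 2 and 0.66 without SMKO 3. SMKO 3 rests on 13 counts. DKO against SMKO gave 0.62 ± 0.29 (1.53-fold, 95% interval 1.02 to 2.30; adjusted p = 0.747), and without SMKO 2 it was 1.09 with an adjusted p of 0.0268. SMKO against ECKO gave 0.61 ± 0.29 (adjusted p = 0.9996), which was 0.12 without SMKO 2, 0.83 without SMKO 3 and 0.34 with library totals alone. In these 3 pairs edgeR called 0% of genes. At an unadjusted p under 0.05 it had 345, 396 and 239 genes in the order given. About 315 of the 6296 would be expected there without any difference. DESeq2 called 0, 3 and 2, and limma-voom 0 in each.

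The place of SMKO 2 depends on the scale. Its TMM factor, 0.739, is the lowest of the 12, and this factor raises its Ace from 395 CPM of the library total to 534. Counted per library total, Ace was 444, 586 and 492 CPM in DKO, 307, 395 and 174 in SMKO, 188, 276 and 248 in ECKO, and 276, 249.5 and 269 in CTRL. In the deposited TPM, which also divide by gene length, Ace was 136, 213 and 149 in DKO, 105, 104 and 50.1 in SMKO, 57.2, 94.99 and 87.5 in ECKO, and 103, 90.6 and 73.3 in CTRL. On both of these scales every DKO library lay above all 9 others, which held for 1.19% of tested genes per library total and for 0.889% in TPM. The ratio of mean levels of SMKO over CTRL was 0.37 on the log2 scale with TMM, 0.14 per library total and -0.04 in TPM. Library-total scaling moved the median log2 fold change of all tested genes in SMKO against CTRL to -0.20, and in DKO against CTRL to -0.14.

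Endothelial loss alone left Ace at 221 CPM in ECKO against 256 in CTRL, a log2 difference of -0.17 ± 0.29 (SE; edgeR adjusted p = 0.998). The 95% interval of that fold, 0.590 to 1.34, leaves room for a fall to about 0.590 of CTRL or a rise to 1.34 times it. ECKO against CTRL gave 0% of genes called with edgeR, 273 genes at an unadjusted p under 0.05 (315 expected without any difference), 2 calls with DESeq2 and 0 with limma-voom.

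Ordered by mean TMM-scaled level, Ace ran from DKO through SMKO and CTRL to ECKO. No neighbouring groups in that order differed past the test: DKO and SMKO, SMKO and CTRL, and ECKO and CTRL all missed it, and the ends of the order, DKO and ECKO, passed. A test over the 4 groups at once missed (edgeR adjusted p = 0.0986; 0.302% of genes called), and became 0.0248 with DESeq2 and 0.00128 without SMKO 2.

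Averaged over endothelial status, the 6 libraries with smooth muscle deletion (DKO and SMKO) exceeded the 6 without (ECKO and CTRL) by 0.83 ± 0.21 (log2, SE; 1.78-fold, 95% interval 1.33 to 2.38). This did not pass edgeR's test (adjusted p = 0.0652), which called 0.206% of genes in either direction and 0.159% higher. An exact two-sided permutation test on Ace alone, exchanging labels within endothelial status (400 arrangements, smallest possible p 0.005), gave p = 0.0400 on log2(CPM + 1), with a difference of 0.74. Within its arms the difference was 1.24 for DKO against ECKO (exact p = 0.1, the smallest that 3 against 3 can give) and 0.24 for SMKO against CTRL (exact p = 0.8). These permutation p-values were not adjusted over genes, and Ace was chosen with earlier results of these data known. The average was 0.58 without SMKO 2 (adjusted p = 0.251) and passed without SMKO 1 (0.0243) or SMKO 3 (0.0143). Averaged over smooth muscle status, the endothelial deletion gave 0.22 ± 0.20 (edgeR adjusted p = 0.9988). In that average edgeR called 0% of genes and had 314 at an unadjusted p under 0.05, with 315 expected without any difference. DESeq2 called 0 and limma-voom 1. The interaction of the deletions, the excess of DKO over the sum of the single losses, was 0.78 ± 0.41 (95% interval -0.05 to 1.62; adjusted p = 0.8195), with 0.0318% of genes called. It was 1.26 without SMKO 2 (adjusted p = 0.0988), 0.54 without SMKO 3 and 0.39 without the 2 shallowest libraries.

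**Figure D3:**
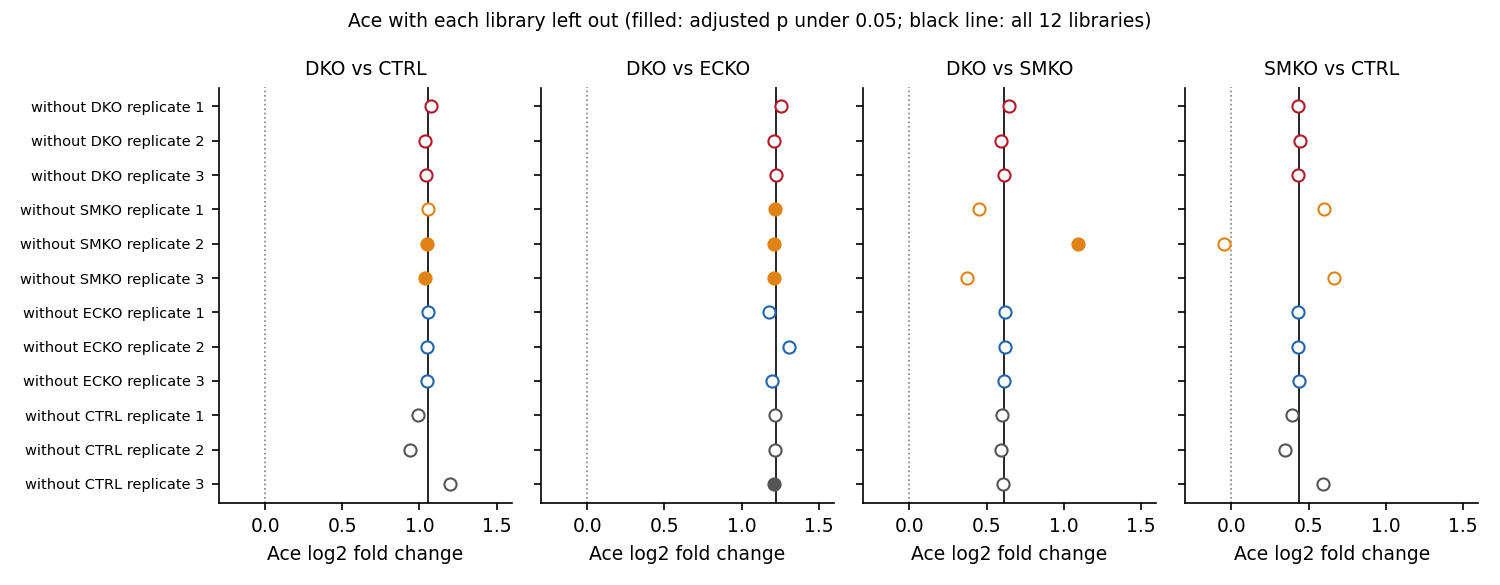
Log2 fold change of Ace in 4 comparisons with each library left out in turn, coloured by the group of the omitted library; filled points have an adjusted p under 0.05, the black line is the value from all 12 libraries and the dotted line is 0. The values for DKO against ECKO stay between 1.18 and 1.31 while the call comes and goes; omitting SMKO 2 moves SMKO against CTRL to -0.05 and DKO against SMKO to 1.09.

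In the authors' deposited table, Ace had a signed fold change of 2.10 with p = 0.00292 for DKO against CTRL, 2.33 with p = 0.000704 against ECKO and 1.55 with p = 0.0829 against SMKO. The authors' deposited table gives p-values under 0.05 to 6.94%, 6.45% and 4.27% of the 16588 genes listed in those comparisons; no source used here says whether they were adjusted. For DKO against CTRL the authors' deposited table gave Agtrap a signed fold change of 1.36 (p = 0.280), Agt 1.43 (p = 0.747) and Agtr1a -3.73 (p = 0.195), where a value below 0 marks the lower level in DKO.

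Per length, Ace was among the more abundant transcripts of the leaflet. Its mean deposited TPM was 166 ± 41.1 in DKO, 86.3 ± 31.4 in SMKO, 79.9 ± 20.0 in ECKO and 88.9 ± 14.8 in CTRL (SD, n = 3). Among the 16588 genes with a count in any library, this ranked Ace 562nd in DKO and 1079th in CTRL. Agtrap stood at 16.8 ± 6.34 TPM in DKO and 13.7 ± 7.36 TPM in CTRL, well below Ace on the same scale.

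Agtrap (ENSMUSG00000029007, chromosome 4), the adaptor of the angiotensin receptor, was the other member with enough counts to test. It had 6, 21 and 12 counts in DKO, 16, 9 and 3 in SMKO, 6, 23 and 10 in ECKO, and 15, 25 and 3 in CTRL. The TMM-scaled levels were 39.6 ± 11.4 CPM in DKO, 38.3 ± 9.88 in SMKO, 29.1 ± 5.49 in ECKO and 27.6 ± 9.57 in CTRL (SD, n = 3 each), and the groups overlapped throughout. The difference of DKO from CTRL was 0.46 ± 0.40 (log2, SE; 95% interval -0.34 to 1.27; edgeR adjusted p = 0.713) and that of DKO from ECKO 0.45 ± 0.40 (adjusted p = 0.752). These intervals include a change as large as that of Ace, so an Agtrap level without change and one that moved with Ace cannot be told apart at this depth.

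**Figure D4:**
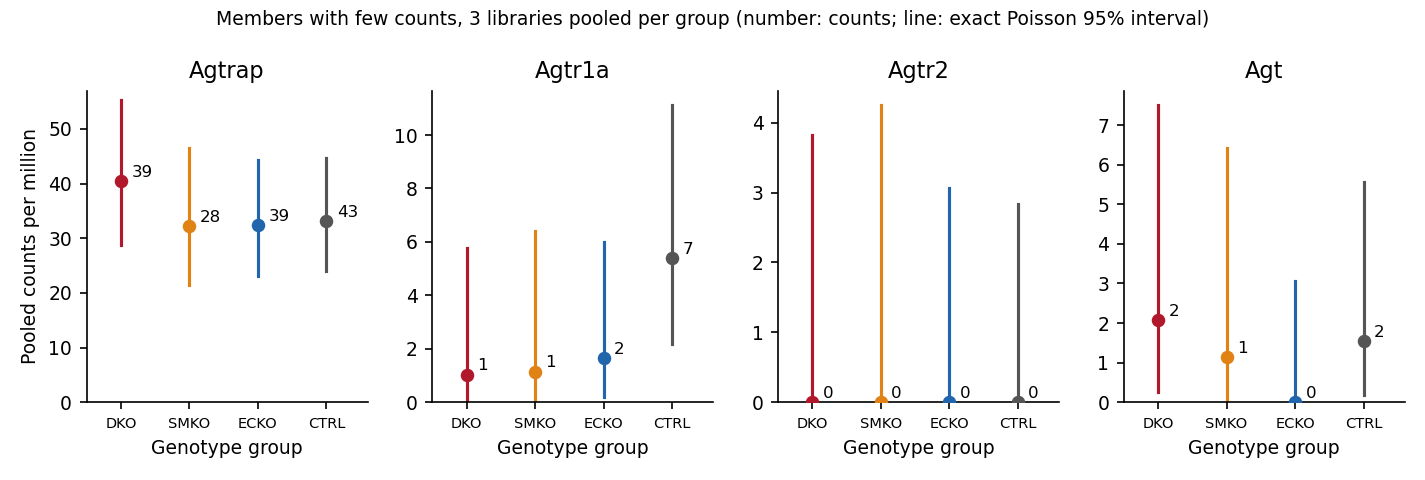
Pooled CPM of library total for Agtrap, Agtr1a, Agtr2 and Agt in each group, with exact Poisson 95% intervals that cover counting error and no other spread; each panel has its own axis and the numbers are pooled counts of 3 libraries. Agtr2 is at 0 throughout, and Agt and Agtr1a rest on 0 to 7 counts a group.

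The receptors and the precursor were at or near the detection limit. Agtr1a (ENSMUSG00000049115, chromosome 13) had 1 count over the 3 DKO libraries, 1 in SMKO, 2 in ECKO and 7 in CTRL, the last as 4, 3 and 0 in CTRL 1, 2 and 3. Per pooled total, the DKO level was 0.192 of the CTRL level with an exact 95% interval of 0.00427 to 1.498, the SMKO level 0.213 (0.00474 to 1.66) and the ECKO level 0.308 (0.0313 to 1.62). All 3 intervals include 1, so no difference in Agtr1a was detectable at this depth, and the CTRL counts came from its deepest libraries.

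Agtr2 (ENSMUSG00000068122, on the X chromosome) had 0 counts in all 12 libraries. A count of 0, read as up to 3 counts over the pooled total, allows up to 3.11 CPM in DKO, 3.45 in SMKO, 2.50 in ECKO and 2.31 in CTRL. Agt (ENSMUSG00000031980, chromosome 8), the precursor, had 2 counts in DKO, both in DKO 3, 1 in SMKO, 0 in ECKO and 2 in CTRL, both in CTRL 1. The pooled ratio of DKO over CTRL, 1.35, has an exact 95% interval of 0.0976 to 18.6. Over all 12 libraries Agtr1a had 11 counts, Agt 5 and Agtr2 0, against 505 for Ace in the DKO libraries alone.

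The other genes of the system were examined in lists. Of 28 further genes, 8 had no count in any library, among them Agtr1b, the close paralogue of Agtr1a, Mas1, a receptor for angiotensin fragments, and Cyp11b2, which makes aldosterone. Another 8 had 1 to 10 counts over all libraries, including Ren1, which encodes renin, with 1 count, and the mast cell chymase Cma1 with 2. Kng1, which encodes the kinin precursor, had 10 counts, all of them in CTRL 1. A further 5 had more than 10 counts and did not enter the test, and 7 were tested.

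Of 16 genes for enzymes that form or degrade the peptides, 6 were tested. In DKO against ECKO 3 were higher and 3 lower with none called, beside 0.572% of all tested genes. In DKO against CTRL 2 were higher and 4 lower with none called, beside 0.492% of all tested genes. The median log2 fold change of the 6 was 0.05 against ECKO and -0.20 against CTRL, beside 0.02 in both for all tested genes. Those with the smallest p for smooth muscle deletion were Anpep, aminopeptidase N, at 26.2 ± 5.07 CPM in DKO, 36.5 ± 7.71 in SMKO, 54.1 ± 14.0 in ECKO and 47.1 ± 12.9 in CTRL (averaged difference -0.68 ± 0.26, SE, edgeR adjusted p = 0.311), and Rnpep, aminopeptidase B (0.55 ± 0.22, adjusted p = 0.333). Neither passed. Of 12 genes of the receptor, adaptor, kinin and aldosterone list, Mtus1, which encodes a partner of the Agtr2 receptor, was the 1 tested; its averaged difference was -0.13 ± 0.19 (adjusted p = 0.887).

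Downstream of the receptor, 21 of 24 signal transduction genes were tested. None of them was called in any pair, where edgeR called at most 0.572% of all tested genes. In DKO against ECKO 14 were higher and 7 lower, with a median of 0.19; in DKO against CTRL 11 were higher and 10 lower, with a median of 0.00. Nox4, an NADPH oxidase, stood at 25.9 ± 8.71 CPM in DKO and 67.3 ± 12.6 in CTRL (log2 fold change -1.20 ± 0.34, SE, edgeR adjusted p = 0.118; averaged over endothelial status -0.67 ± 0.25, adjusted p = 0.272). Rgs2, which switches off the G protein coupled to the Agtr1a receptor, stood at 33.1 ± 13.3 CPM in DKO and 65.7 ± 24.6 in CTRL (-0.99 ± 0.36, adjusted p = 0.222; averaged -0.71 ± 0.26, adjusted p = 0.284).

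Among 16 genes known to be induced by angiotensin II in vascular cells, 13 were tested and 2 rose in DKO against ECKO, where 0.349% of all tested genes were called higher. They were Ccn2, a matricellular protein, at 3036 ± 560.0 CPM in DKO against 1008 ± 189 in ECKO (log2 fold change 1.59 ± 0.36, SE, edgeR adjusted p = 0.0399), and the monocyte chemokine Ccl2, at 53.6 ± 18.5 CPM in DKO against 9.70 ± 4.35 in ECKO (2.38 ± 0.56, adjusted p = 0.0426). In that comparison 8 of the 13 were higher and 5 lower with a median of 0.56, beside 0.02 for all tested genes. In DKO against CTRL 9 were higher and 4 lower with a median of 0.27 and none called, beside 0.492% of all tested genes. There Ccn2 stood at 1.496 ± 0.36 (edgeR adjusted p = 0.0535) and Ccl2 at 1.57 ± 0.50 (adjusted p = 0.175). The genes respond to many other stimuli, and the list was written with earlier results of these data known.

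Of 13 genes of ERK signalling, cofilin and mechanosensing that have been studied in the fibulin-4-deficient aorta, 9 were tested. None of them was called in any pair, where edgeR called at most 0.572% of all tested genes. Egr1, an immediate early transcription factor, stood at 79.7 ± 67.7 CPM in DKO, 83.0 ± 40.9 in SMKO, 189 ± 23.0 in ECKO and 277 ± 137 in CTRL (SD, n = 3 each). Its averaged difference for smooth muscle deletion was -1.56 ± 0.43 (SE; edgeR adjusted p = 0.219), on the lower side where that of Ace was on the higher. Mapk3, which encodes ERK1, had an averaged difference of 0.44 ± 0.19 (adjusted p = 0.378). Thbs1, chosen after its values were seen, stood at 4036 ± 1530 CPM in DKO and 3679 ± 379 in CTRL (0.13 ± 0.40, edgeR adjusted p = 0.9500). Egr1 and Thbs1 are also on the list of genes induced by angiotensin II, where Egr1 was among those lower in DKO than in ECKO.

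By Pearson's r, the genes whose levels ran most like those of Ace over the 12 libraries were Ly6a, a surface antigen of progenitor and endothelial cells (r = 0.966 on log2 CPM), Cryab, a small heat shock protein (0.952), Col4a2, a basement membrane collagen chain (0.946), Npy, neuropeptide Y (0.945), and Timp1, an inhibitor of matrix proteases (0.943). These are descriptions over libraries that share group, depth and composition. After removal of the group means the correlations were between 0.884 and 0.927, and Spearman's rho was between 0.804 and 0.860. Other genes came closer by these measures, which placed the 5 between ranks 10 and 41 and between ranks 26 and 71. Ly6a stood at 1372 ± 158 CPM in DKO, 796 ± 1035 in SMKO, 212 ± 17.2 in ECKO and 221 ± 47.8 in CTRL. Its SMKO libraries had 276, 1987 and 124 CPM, with SMKO 2 highest as for Ace and a wider spread than Ace had.

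**Figure D5:**
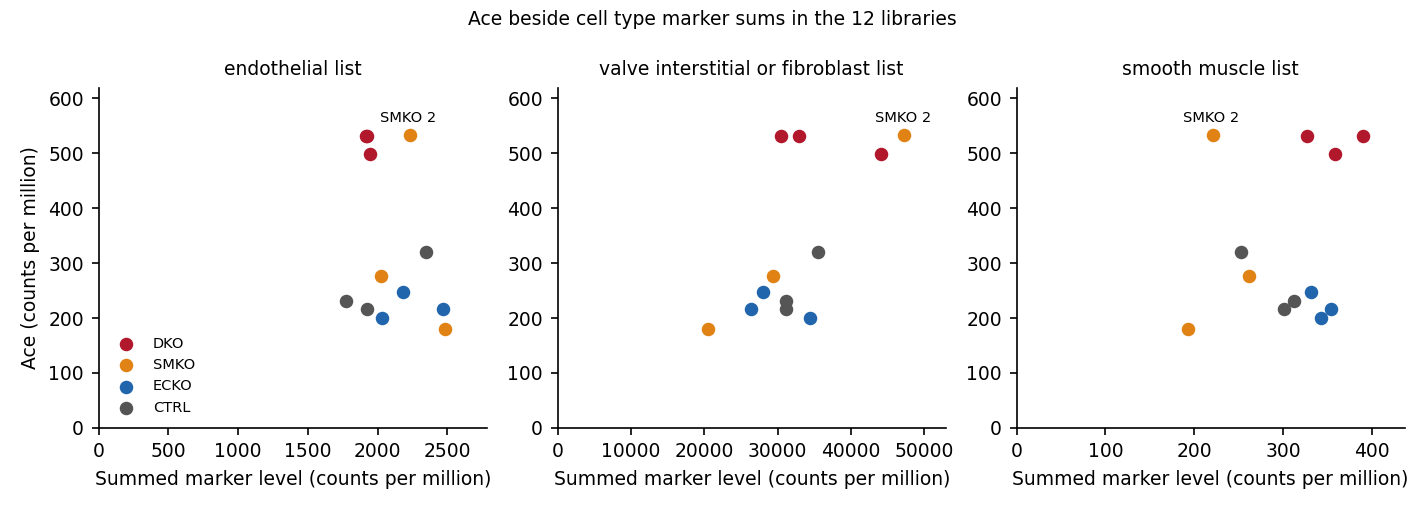
TMM-scaled Ace level against the summed level of endothelial, valve interstitial or fibroblast, and smooth muscle markers in the 12 libraries, coloured by group. The DKO libraries have Ace at 499 to 532 CPM with endothelial sums of 1920 to 1948 CPM, below the ECKO sums. SMKO 2, whose low TMM factor raises both its Ace and its marker sums, has the highest interstitial sum on this scale, 47233 CPM.

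The marker lists of the leaflet's cell types stood as follows beside Ace. The 15 endothelial markers summed to 1931 ± 15.0 CPM in DKO, 2245 ± 232 in SMKO, 2228 ± 221 in ECKO and 2014 ± 299 in CTRL (SD, n = 3). In DKO against ECKO, 3 of the 14 tested were higher and 11 lower, with Kdr and Prox1 called lower, as were 0.222% of all tested genes. In DKO against CTRL 7 were higher and 7 lower, with none called, beside 0.492% of all tested genes. The 10 interstitial markers summed to 35800 ± 7275 CPM in DKO and 29577 ± 4282 in ECKO, with the highest library, SMKO 2, at 47233 CPM and the lowest, SMKO 3, at 20497; these are also the SMKO libraries with the highest and the lowest Ace. These sums are TMM-scaled, and the factor of SMKO 2, 0.739, raises its sum as it raises its Ace. Its interstitial markers had 9198 of 263589 counts, against 9711 of 247718 in DKO 1. The place of SMKO 2 as the highest therefore depends on the scale. The part of the interstitial cells in the Ace level was not tested. The 7 smooth muscle markers summed to 359 ± 31.4 CPM in DKO, 225 ± 34.6 in SMKO, 343 ± 11.2 in ECKO and 289 ± 31.6 in CTRL. The 6 melanocyte markers had sums of 384 to 903 CPM in DKO against 61.4 to 101 CPM in ECKO. Of the 5 tested between these groups all 5 were higher in DKO, with Dct called, as were 0.349% of all tested genes. The melanocyte sums ranged from 193 to 1007 CPM in SMKO and from 201 to 677 CPM in CTRL. The 5 red blood cell markers summed to 99.6 to 427 CPM in DKO against 41.0 to 5561 CPM in ECKO. The part of either list in the Ace difference was not tested.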

How the data were processed

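RNA of laser-captured leaflets was measured in 12 libraries, 3 in each of 4 groups. The authors deposited 1 table with whole-number counts per gene and TPM for each library, and comparisons of DKO with the other groups as a signed fold change (a score that is negative for lower levels) with a p-value, per the file headers. Per the submitters' processing notes, reads were placed on GRCm39; no aligner or counter is named there. Of 41709 genes, 16588 had a count. Totals of 74827 to 615665 counts limit precision. The exact intervals of pooled counts and the floors of 3 counts cover counting error only. Intervals of the edgeR fold changes rest on the SE of the fit, which also takes in spread between libraries.

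Counts were tested with edgeR 4.0.16 in R 4.3.3 (quasi-likelihood, TMM, filterByExpr with a minimum count of 10) in a fit of the 12 libraries together (8 residual degrees of freedom), with p-values adjusted by Benjamini-Hochberg over 6296 genes at 0.05. Mean CPM use the TMM-scaled totals. Alternatives were median-ratio size factors, no filter, DESeq2 1.42.0, limma-voom (limma 3.58.1), a replicate block, covariates for depth and Y-linked counts, leaving out each library or the 2 shallowest, and, added after seeing the data, library totals alone. The fit was tested on simulated counts with the same spread for every gene and with larger changes than that of Ace. It therefore cannot show how the fit handles the uneven spread of these libraries.

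The members and lists were chosen with earlier results of these data known. From each list the text names genes called in any pair or average, otherwise the 2 with the smallest p for smooth muscle deletion averaged, and the 5 genes with the highest Pearson r to Ace. Promoters are from RefSeq on GRCm38.p6.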

Additional observations from a re-analysis of the deposited data

How the results depend on the processing

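Over 21 alternatives Ace was higher in DKO than in ECKO and CTRL in every one, with the log2 fold change between 1.09 and 1.31 against ECKO and between 0.94 and 1.20 against CTRL; the adjusted p moved across 0.05 in both. Without a filter on low counts, Ace passed in DKO against CTRL (1.05), for smooth muscle deletion averaged (0.82) and over the 4 groups (adjusted p = 0.00862). With DESeq2 the values were 1.04, 0.83 and an adjusted p of 0.0248, and without the 2 shallowest libraries 1.20, 1.01 and 0.0178. Ace lost its call in DKO against ECKO with a depth covariate (1.24) and with library totals alone (1.09, chosen after seeing the data). The cause was not tested.

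With single libraries left out, Ace ranged from 0.94 to 1.20 in DKO against CTRL, 1.18 to 1.31 in DKO against ECKO, 0.38 to 1.09 in DKO against SMKO, -0.0482 to 0.66 in SMKO against CTRL, 0.12 to 0.83 in SMKO against ECKO, 0.58 to 0.94 for smooth muscle deletion averaged and 0.54 to 1.26 for the interaction; over the 4 groups the adjusted p ranged from 0.00128 to 0.448. Agtrap, never called, changed sign in ECKO against CTRL (0.01) without a filter (-0.0137), with the replicate block (-0.0520), library totals alone (-0.0184), a Y-linked covariate (-0.00808) and without the 2 shallowest libraries (-0.0426). Its single-omission ranges were -0.23 to 0.41 there, -0.16 to 0.42 in DKO against SMKO, -0.0708 to 0.30 for endothelial deletion averaged and -0.22 to 0.43 for the interaction.

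Counts of genes called over the alternatives ran from 4 to 158 in DKO against CTRL (31 in edgeR), 0 to 173 in DKO against ECKO (36), 5 to 149 for smooth muscle deletion averaged (13), 3 to 218 over the 4 groups (19) and 0 to 62 for the interaction (2). Replicate numbers were not taken to pair the libraries, since 5 of 18 same-numbered pairs, and not all, had a correlation of deviations over 0.1; the median was 0.0776 for same-numbered pairs and -0.0369 for the others. With the replicate block, Ace was 1.24 in DKO against ECKO (adjusted p = 0.0301) and 1.05 in DKO against CTRL (adjusted p = 0.0711), and no call of Ace or Agtrap changed. Depth limits Agt, Agtr1a and Agtr2, which no fold change in these data can resolve.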
